A study of Mus musculus with 12 samples.

Results

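The Veph1 Hgf Gli3 astroglia described here were 795 nuclei of 101802 that passed the quality filter, or 0.781%, in the mouse forebrain at postnatal day 1 (P1). They were selected on measured values, by counts of UMIs, the molecular tags that let each RNA molecule be counted once. A nucleus was taken when it held at least 2 UMIs of Slc1a3, at least 2 UMIs in the sum of Veph1, Hgf, Lhcgr and Shroom3, a larger sum of those genes than of Tnc, Fabp7, Bcan and Aldh1l1, and at most 3 UMIs in the sum of Mki67, Top2a, Cenpf, Cenpe, Kif11 and Aspm, which mark dividing cells. Levels of these genes therefore describe the choice and are not findings, and the same holds for differences between these nuclei and other nuclei of the same libraries. The filter kept nuclei with 800 to 6000 UMIs, 300 to 3000 genes and at most 1% mitochondrial UMIs.

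The study compared wild-type mice (WT) with heterozygotes (Het) of the MYT1L S710fsX line, in which Myt1l carries a germline frameshift, by single-nucleus RNA sequencing. There were 8 WT libraries, 5 male and 3 female, and 4 Het libraries, 3 male and 1 female, each from 1 animal, and the labels give no treatment. The libraries are called WT 1 to WT 8 and Het 1 to Het 4, with WT 6, WT 7, WT 8 and Het 4 female. The tissue is labelled forebrain, while 1 passage of the study's methods names prefrontal cortex.

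Astroglia is used here for cells that share the glutamate transporter Slc1a3, a group that takes in radial glia, astrocytes and the cells between them. Radial glia are the stem cells that line the ventricles of the developing brain, and around birth they give rise to astrocytes and to the multiciliated ependymal cells that later cover the ventricle wall. Gli3 is a transcription factor of the hedgehog pathway that acts mostly as a repressor, Hgf is a growth factor for the receptor Met, Lhcgr is the receptor for luteinizing hormone, and Shroom3 is an actin-binding protein of the apical side of epithelial cells. Veph1 carries a lipid-binding domain. Slc1a3 is not restricted to astroglia, and cells of the meninges and blood vessels can also express it.

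Each library contributed between 19 and 136 of these nuclei. There were 136, 46, 43, 19, 32, 32, 117 and 47 in WT 1 to WT 8, and 57, 92, 84 and 90 in Het 1 to Het 4. WT 4 therefore gave the least precise values, with 33795 UMIs in its members together, while WT 1 gave the most, with 257445. The median member held 1586 UMIs and 1114 genes, against 2000 UMIs in all filtered nuclei. No barcode occurred in more than 1 library (0 shared of 126684).

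Many nuclei lay near the limits of the rule. Among the members, 273 had fewer than 3 UMIs in the sum of Veph1, Hgf, Lhcgr and Shroom3, while 496 nuclei stood just outside with 1 to below 2 such UMIs. Likewise 213 members had fewer than 3 UMIs of Slc1a3, and 281 nuclei with 1 to below 2 were left out. A further 181 nuclei had equal sums for the opposing sets of genes, and 35 exceeded only the limit on division genes. When each nucleus was thinned to 800 UMIs, the rule took 333 nuclei, 266 of them members, so membership at this depth rests on few molecules.

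Shroom3 was the gene through which most members entered. It had at least 1 UMI in 569 members, against 381 for Veph1, 354 for Hgf and 231 for Lhcgr. In 166 members Shroom3 was the only gene of the sum with a UMI, compared with 52 for Veph1, 34 for Hgf and 23 for Lhcgr.

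Levels are given as CPM, the UMIs of a gene per 1000000 UMIs of the population, a scale that does not correct for gene length, so they compare populations for 1 gene and not genes with each other. The 6103 nuclei with the opposite balance of the rule, called Tnc astroglia here, served as the nearest population. Over the 12 libraries, Veph1 (chr3:66053558-66296837, GENCODE M21 on mm10) averaged 464 ± 96.7 CPM in the members (SD, n = 12) and 85.4 ± 20.4 CPM in the Tnc astroglia. Hgf (chr5:16553495-16620152) averaged 391 ± 119 CPM and 90.9 ± 17.7 CPM. For Lhcgr (chr17:88716481-88791990) the values were 290.2 ± 126 CPM and 24.1 ± 9.18 CPM, and for Shroom3 (chr5:92683435-92965318) 799 ± 130.4 CPM and 70.9 ± 19.5 CPM. Each of these genes was higher in the members in 12 of 12 libraries, as the rule requires of their sum. Slc1a3 (chr15:8634124-8710764) was lower in the members in 12 of 12 libraries, at 2137 ± 350.5 CPM against 2669.7 ± 431 CPM.

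Gli3 (chr13:15463235-15730026) was not part of the rule. It averaged 613 ± 119 CPM in the members and 409 ± 70.0 CPM in the Tnc astroglia, and was higher in the members in 12 of 12 libraries, which is a description since the nuclei were chosen from the same counts. In 67904 neurons, which should lack these genes, their levels were read as the background. Neurons were chosen as nuclei with no UMI of Slc1a3, which leaves out nuclei that caught RNA of astroglia, so this background may be understated. Pooled over libraries, neurons held 2.47 CPM of Veph1, 2.15 of Hgf, 1.29 of Lhcgr, 8.99 of Shroom3 and 8.20 of Gli3, at a median of 2307 UMIs per nucleus. All of these were below the members.

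The label of the members was then checked against their own genes, and it held for part of them. Clustering on 2000 variable genes divided the members into 4 subclusters. Subclusters 0 and 1, with 346 and 198 nuclei, carried most of the radial glia genes and made up 68.4% of the members. Subcluster 2, with 151 nuclei, also carried the genes of neurons, and subcluster 3, with 100 nuclei, carried those of fibroblasts. The whole set is therefore called the members below, and its parts are called by their subcluster numbers.

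**Figure D1:**
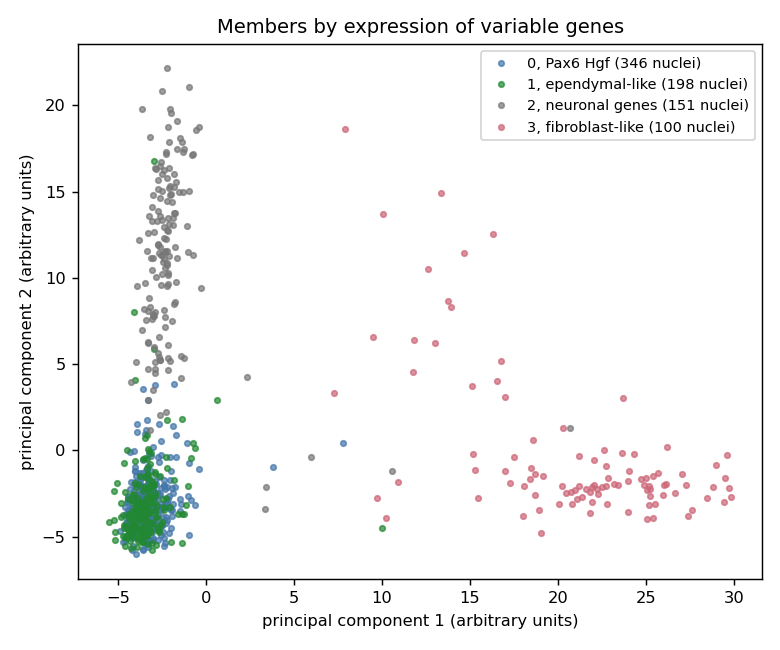
The first 2 principal components of the 795 members, in arbitrary units, with 1 point per nucleus coloured by subcluster. The 100 nuclei of subcluster 3 spread to the right on component 1 and most of the 151 nuclei of subcluster 2 lie high on component 2, while the 346 and 198 nuclei of subclusters 0 and 1 overlap on these components.

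Subcluster 0 had the highest levels of Veph1, Hgf, Shroom3, Slc1a3 and Gli3 and of most radial glia genes. Pooled over libraries it held 862 CPM of Veph1, 731 of Hgf and 1079 of Gli3, against 487, 239 and 595 in subcluster 1. Its 5 leading genes by ratio to the other members were Gm29260, Pax6, Tnc, Egln3 and Tmem132b. Pax6, a transcription factor of dorsal radial glia, stood at 233 CPM against 37.8 in the other members. Gm29260, a predicted gene, stood at 3709 CPM against 716. Tnc, a matrix protein of radial glia that counted against membership, was still at 821 CPM, under the 2988 of the Tnc astroglia.

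Of 22 radial glia genes measured, 15 had their highest level in subcluster 0 and 7 in subcluster 1. Those with the most UMIs in the members were Ptprz1, a receptor phosphatase, with 6197 CPM in subcluster 0, the adhesion receptor Adgrv1 with 1107, the cadherin Cdh4 with 589 and Notch2 with 457. Adgrv1 peaked in subcluster 1, at 1369 CPM. Ptprz1 was higher in the Tnc astroglia, at 7848 CPM, whereas Adgrv1 and Notch2 were lower there, at 362 and 166. Of the 23 genes of astrocytes, 11 peaked in subcluster 0, 7 in subcluster 1 and 5 in subcluster 3, and their summed level was 5386 CPM in subcluster 3, above the 4506 of subcluster 0. Slc4a4, Gja1, Gjb6 and Id3 were among those that peaked in subcluster 3. Slc1a2, the other main glutamate transporter, stood at 1238 CPM there and at 978 in the Tnc astroglia. The water channel Aqp4, a marker of mature astrocytes, was low in all members at 27.8 CPM, below the 77.4 of the Tnc astroglia.

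Subcluster 1 carried the genes of motile cilia and is called ependymal-like. All 20 genes of the ependymal list had their highest level in it. Its 5 leading genes were the axonemal dynein Dnah12, the adenylate kinase Ak7, Cfap299, the dynein Dnah6 and the adenylate kinase Ak9. Cfap44, a part of the ciliary axoneme, stood at 795 CPM in subcluster 1 and at 177 in subcluster 0, and Dnah9 at 542 and 69.0. Foxj1, the transcription factor that switches on the motile cilia programme, stood at 64.7 and 8.05 CPM. Rfx3, a partner of Foxj1 at ciliary genes, stood at 1328 and 682 CPM, and at 721 CPM in neurons. Lhcgr peaked here too, at 792 CPM against 226 in subcluster 0.

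The late ciliary genes came from few nuclei and few libraries. Dnah12 had a UMI in 12.1% of the nuclei of subcluster 1. Of its UMIs in that subcluster, 87 came from Het 1, 55.3 from WT 7 and 43 from Het 3, and the other 9 libraries gave between 0 and 4 each. Foxj1 had 7 UMIs there in Het 1, 5 in Het 3, 4 in WT 7 and at most 2 in any other library. Cfap44 was spread more evenly, with between 4 and 65 UMIs in 11 libraries and 0 in WT 6, which had 2 nuclei of subcluster 1.

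Promoters of the ciliary genes are shown because Rfx factors bind the X-box, a motif of paired inverted sites, at such genes. The single site GTTGCC, on either strand, was present in 8 of 20 promoters of the list (RefSeq, GRCm38.p6, 250 bases before to 50 after the start site, 18 of 20 genes matched), or 40%, against 12.5% of all 32851 promoters. The whole X-box was searched only as a fixed pattern of letters, so paired sites that differed from it were not counted. That pattern was in 0 of the list's promoters and in 0.298% of all. The Cfap44 and Hydin promoters given below each hold a paired site that differs from the pattern by a single letter. The 0 therefore does not show that the list's promoters lack an X-box. Among the leading genes of subcluster 1 the single site was in 2 of 8 promoters and the fixed pattern of the whole X-box in 1 of the 8. The single site was in 1 of 20 promoters for subcluster 0, 0 of 19 for subcluster 2 and 1 of 12 for subcluster 3. These are matches of letters and not measured sites. The 250 bases before the start are given for the 3 genes of highest CPM in subcluster 1 among those with a match there, with that site in capitals. They are Cfap44 (chr16:44394549-44394798, plus strand), Hydin, a protein of the central pair of the axoneme (chr8:110266727-110266976, plus strand), and Rfx2 (chr17:56831009-56831258, minus strand).
Cfap44: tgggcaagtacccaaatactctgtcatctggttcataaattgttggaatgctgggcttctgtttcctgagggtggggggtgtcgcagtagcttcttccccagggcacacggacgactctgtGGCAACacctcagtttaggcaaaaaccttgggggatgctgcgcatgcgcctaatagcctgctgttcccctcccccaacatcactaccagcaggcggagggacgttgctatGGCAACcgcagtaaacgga
Hydin: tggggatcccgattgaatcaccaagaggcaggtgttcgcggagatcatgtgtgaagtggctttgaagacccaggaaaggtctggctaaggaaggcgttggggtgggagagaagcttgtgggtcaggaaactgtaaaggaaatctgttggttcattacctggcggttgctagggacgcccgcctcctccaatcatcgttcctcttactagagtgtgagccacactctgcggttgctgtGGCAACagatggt
Rfx2: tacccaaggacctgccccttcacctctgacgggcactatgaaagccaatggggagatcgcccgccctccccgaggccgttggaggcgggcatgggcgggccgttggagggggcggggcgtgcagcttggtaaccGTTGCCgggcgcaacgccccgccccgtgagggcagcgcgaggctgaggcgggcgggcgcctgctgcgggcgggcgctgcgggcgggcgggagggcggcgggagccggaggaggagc

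Subcluster 2 held neuronal genes beside astroglial ones and was given no cell type name. It was the deepest, with a median of 3371 UMIs per nucleus against 1312 in subcluster 0, and 61 of its 151 nuclei were among the 74 members marked as likely doublets, against 1 each in subclusters 0 and 1 and 11 in subcluster 3. Its leading genes were Arpp21, Tenm2, Tafa2, Cdh8 and Cntnap5a, all of neurons. All 14 genes of the neuron list peaked in it, among them Rbfox1 with 6396 CPM, Nrxn3 with 4568, Map2 with 1259.8 and Syt1 with 1097. Slc1a3 was at 1042 CPM there, below the other subclusters. The part of paired nuclei in these levels was not tested.

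Subcluster 3 went against the label by its leading genes, although part of the astrocyte list was also high in it. Its leading genes were Sidt1, Cped1, the transporter Slc6a13, the collagen Col3a1 and the growth factor Bmp6, and it is called fibroblast-like from the collagens Col1a1 (621 CPM), Col1a2 (1673 CPM) and Col3a1 (1115 CPM) and from Dcn (231 CPM). The mural genes Rgs5 and Kcnj8 had 0 UMIs there. Its Veph1, Hgf and Lhcgr were at 16.8, 29.4 and 33.6 CPM, so these nuclei entered by Slc1a3 (1852 CPM) and Shroom3 (1029 CPM). Of the astrocyte genes high there, the bicarbonate transporter Slc4a4 stood at 1480.5 CPM against 389 in subcluster 0, and the gap junction gene Gja1 at 344 against 32.2. The ion channel Trpm3 was at 23624 CPM in the WT nuclei of subcluster 3 and at 228 in those of subcluster 0.

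**Figure D2:**
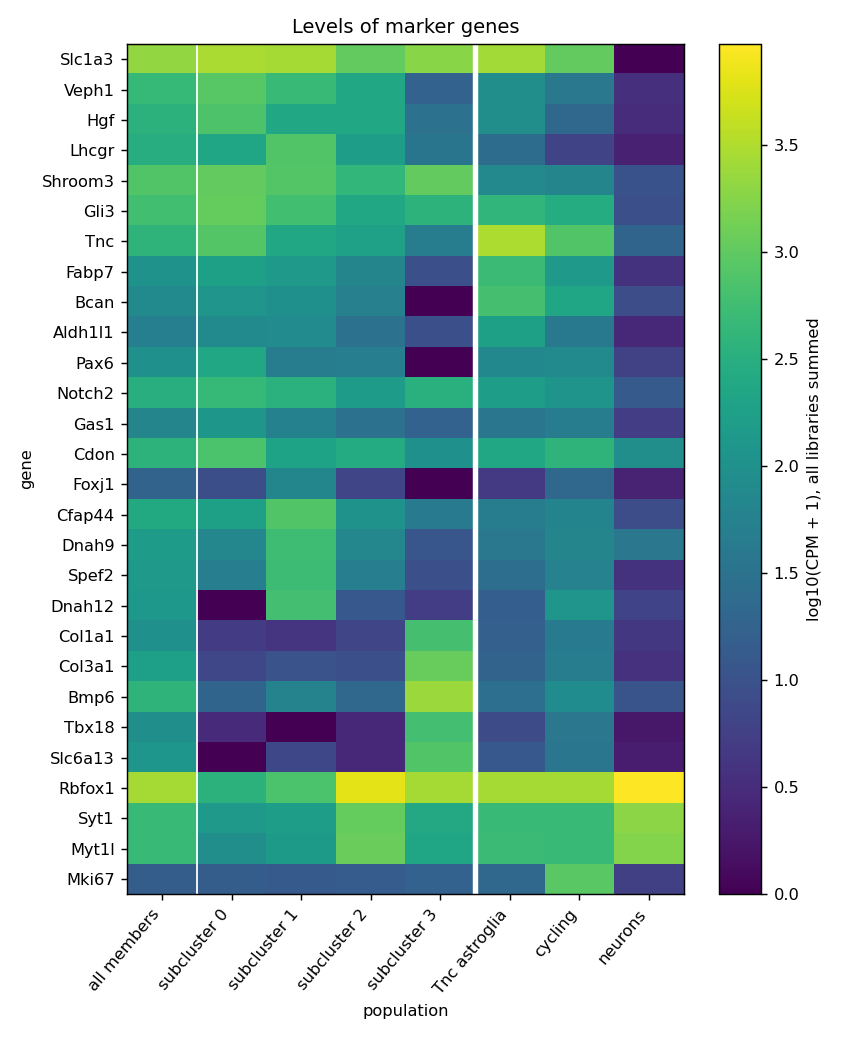
Levels of marker genes (rows) in all members, in each of their 4 subclusters, and in the Tnc astroglia, dividing nuclei and neurons (columns), as log10 of CPM + 1 with all 12 libraries summed. Veph1, Hgf and Lhcgr are bright in subclusters 0 and 1 and dark in subcluster 3, where Col3a1 reaches 1115 CPM, and Dnah12 is bright in subcluster 1 at 611 CPM.

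The genes with the largest ratio of members to Tnc astroglia were mostly those of subcluster 3. Outside the rule, 7588 genes reached 20 CPM in either population, of which 192 were higher in the members in every library that had the gene and 214 were lower. Of 14 genes described among those with the largest ratio, 13 peaked in subcluster 3. Aldh1a2, which makes retinoic acid, averaged 90.5 ± 51.0 CPM in the members (SD, n = 12) and 5.15 ± 2.36 CPM in the Tnc astroglia. The others of this kind were Bmp6, Gm8189, Cped1, the organic anion transporter Slc22a6, the leptin receptor Lepr, Slc6a13, Col3a1, Plscr2, the transcription factor Foxc1, Dcdc2a, the glypican Gpc3 and Slc6a20a. Their ratios of pooled levels lay between 8.21 for Gpc3 and 18.2 for Aldh1a2. Ccdc170 was the exception, with its peak of 248 CPM in subcluster 1.

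The 10 genes with the smallest ratio set all 4 subclusters apart from the Tnc astroglia, since each of them was below the Tnc astroglia in every subcluster. Grm3, a metabotropic glutamate receptor, averaged 414 ± 113 CPM in the members and 2227 ± 607 CPM in the Tnc astroglia. Lrig1, which restrains growth factor receptors, averaged 65.9 ± 17.0 CPM and 379 ± 64.3 CPM. Etv4, a transcription factor of growth factor signalling, averaged 18.4 ± 11.4 CPM and 128 ± 27.6 CPM. The others were Inka2, Pla2g3, the potassium channel Kcnj6, the antisense RNA Nkx2-2os, 4833422C13Rik, Plpp4 and Id3, a target of BMP signalling. Nkx2-2os and 4833422C13Rik overlap 4 and 3 genes on the other strand, and the use of strand in counting is not stated, so their UMIs are uncertain.

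**Figure D3:**
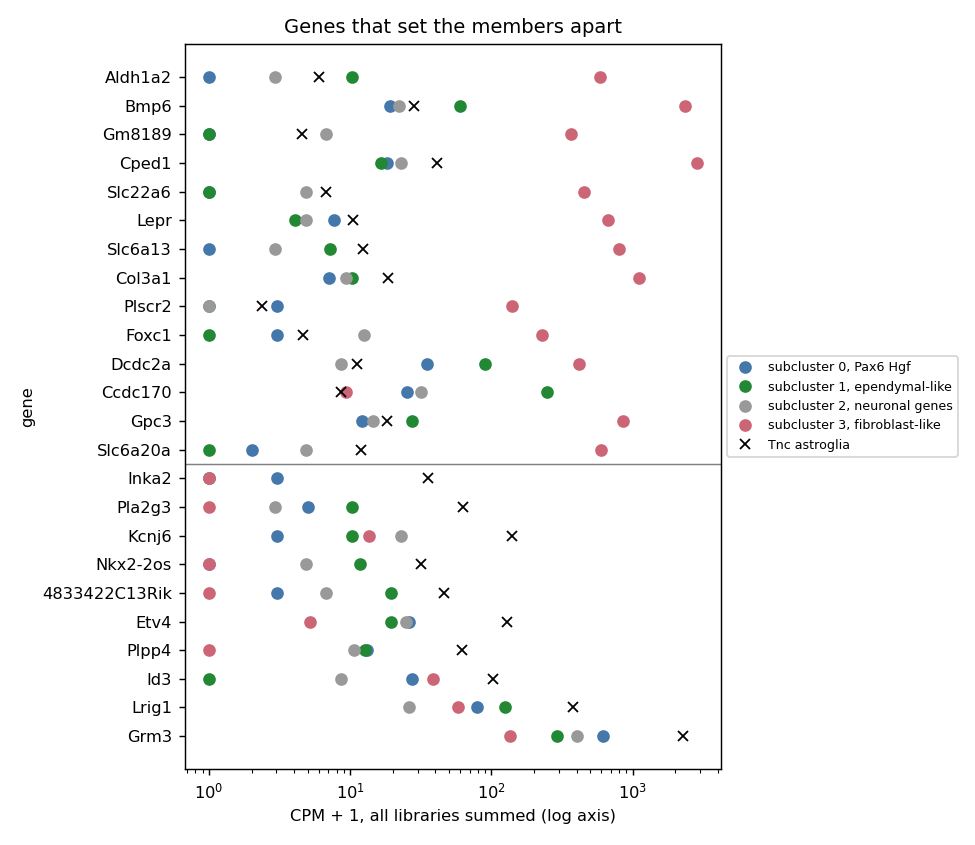
Genes highest (14, above the line) and lowest (10, below it) in the members relative to the Tnc astroglia, with pooled CPM + 1 on a log axis for each subcluster (points) and the Tnc astroglia (crosses). Subcluster 3 lies far to the right for 13 of the upper genes, and the crosses lie to the right of all points for the 10 lower genes.

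Hedgehog pathway genes other than the ligand were detected in the members. Shh had 0 UMIs in the members. Among receptors and coreceptors, Cdon stood at 694 CPM in subcluster 0 and 236 in the Tnc astroglia. Boc stood at 176 and 86.5, and Gas1 at 125 and 35.0. Over all members the levels were lower, with Cdon at a mean of 374 CPM in WT and 335 in Het, and Boc at 102 and 94.5. Ptch1, the receptor and a target of the pathway, stood at 146 CPM in the members and 204 in the Tnc astroglia, and was lower in the members in 11 of 12 libraries. The factor Gli2 stood at 144 and 135 CPM and Gli1, another target, at 28.6 and 18.7. Of 14 genes of this list with a UMI, 8 peaked in subcluster 0.

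Of the Hgf pathway, the receptor Met was at 9.06 CPM in the members, below the 31.7 of neurons, and the adaptor Gab1 at 167. Hgfac, Plau and Spint1, which cut Hgf or block its cutting, had 0 UMIs. Among Notch genes, the coactivators Maml2 and Maml3 and the receptors Notch2 and Notch1 had the most UMIs. Maml2 stood at 890.0 CPM in the members and 1566 in the Tnc astroglia, lower in 12 of 12 libraries, and Maml3 at 337 and 146, higher in 12 of 12. The target Hes5 was at 27.2 against 58.7 CPM and lower in 12 of 12.

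Among Wnt and BMP genes, Bmp6 of subcluster 3 led. The BMP receptors Bmpr1b and Bmpr1a were lower in the members in 12 of 12 libraries, at 318 against 739 CPM and 228 against 429.7. Sfrp1, a secreted Wnt modulator, was higher in 12 of 12, at 148 CPM against 70.2. Of other receptors, Fgfr2 was at 866 CPM against 644 and higher in 12 of 12 libraries. Egfr was lower in 12 of 12, at 189.6 against 394 CPM. Of polarity genes, Pard3b stood at 1137 CPM, Magi1 at 985, Cdh2 at 981 and Crb2, an apical protein, at 24.3 against 7.37 and higher in 11 of 12.

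Some genes of the dorsal and ventral forebrain lists were detected, and no region was assigned to the members from them. The ventral list summed to 2085 CPM in the members and to 1314 in neurons, so it was not restricted to the members. Of the dorsal list, Lhx2 stood at 72.4 CPM in subcluster 0 and 16.8 in subcluster 3, and Emx2 at 32.2 CPM in subcluster 0 with 0 UMIs in subcluster 3. Of the ventral list, Meis2 led with 2183 CPM in subcluster 0, followed by Zic1, Zic4 and Zic2, whose highest levels were in subcluster 3 (478, 268 and 134 CPM). Gsx1, Gsx2 and Vax1 had 0 UMIs. The division genes outside the rule summed to 488 CPM against 4086 in the 1546 dividing nuclei.

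The first question of the genotype comparison was whether Het forebrains held more or fewer of these nuclei. The share of filtered nuclei, in percent, was 1.23, 0.628, 0.692, 0.352, 0.390, 0.505, 1.15 and 0.979 in WT 1 to WT 8, and 0.520, 0.857, 0.715 and 1.02 in Het 1 to Het 4. The counting interval alone ran from 0.212% to 0.549% for WT 4 and from 1.03% to 1.45% for WT 1 (95% exact binomial intervals, which cover counting error only). The Het libraries lay within the WT range. Mean shares were 0.740 ± 0.339% over the 8 WT libraries and 0.778 ± 0.213% over the 4 Het libraries (mean ± SD), a difference of 0.0376 percentage points that was smaller than the spread between libraries (exact permutation test, two-sided, p = 0.832, adjusted p = 0.832 over 4 measures). With 12 libraries the smallest p this test can give is 0.00404.

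The share of members among both astroglial populations was 10.7 ± 3.57% over the 8 WT libraries and 11.2 ± 2.52% over the 4 Het libraries (mean ± SD), with p = 0.812 by the exact permutation test. Per 100 dividing nuclei there were 48.9 ± 21.9 members over the 8 WT libraries and 53.8 ± 13.7 members over the 4 Het libraries (mean ± SD), with an exact permutation p of 0.703. The median depth was 1555 ± 120.4 UMIs over the 8 WT libraries and 1619.9 ± 58.6 UMIs over the 4 Het libraries (mean ± SD), with an exact permutation p of 0.339. The adjusted p was 0.832 for all 4 measures, and in each the ranges of WT and Het overlapped.

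Within the members, subcluster 0 took a smaller and subcluster 1 a larger share in the Het libraries, but neither difference passed the test after adjustment. Subcluster 0 made up 42.1%, 25%, 34.5% and 40% of the members of Het 1 to Het 4, and from 32.6% to 65.6% across the WT libraries, with a median of 51.6%. All 4 Het libraries lay below the WT mean, and the groups overlapped. The means were 51.4 ± 10.8% over the 8 WT libraries and 35.4 ± 7.64% over the 4 Het libraries (mean ± SD), a difference of -16.0 percentage points (exact permutation p = 0.0364, adjusted p = 0.121 over 4 subclusters). Without WT 2, the lowest WT library, it was -18.7 points and passed (exact permutation, adjusted p = 0.0485), and without Het 2, the lowest Het library, it was -12.6 points (exact permutation, adjusted p = 0.364). The ependymal-like subcluster 1 made up 18.2 ± 9.22% over the 8 WT libraries and 31.4 ± 10.3% over the 4 Het libraries (mean ± SD), with all 4 Het libraries above the WT mean (exact permutation p = 0.0606, adjusted p = 0.121). It was lowest in WT 5 and WT 6, with 2 nuclei each, and in WT 4, with 3. Subclusters 2 and 3 differed by 2.99 and -0.157 percentage points, with adjusted p of 0.603 and 0.962 by the same exact permutation test.

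Set against all filtered nuclei, subcluster 0 made up 0.370 ± 0.168% over the 8 WT libraries and 0.272 ± 0.0919% over the 4 Het libraries (mean ± SD), and subcluster 1 0.149 ± 0.112% over the 8 WT libraries and 0.235 ± 0.0759% over the 4 Het libraries (mean ± SD). On this base the exact permutation p was 0.339 and 0.170, with an adjusted p of 0.571 over 4 subclusters for both. Of the Het libraries, 3 of 4 lay below the WT mean for subcluster 0 and 4 of 4 above it for subcluster 1, and the groups overlapped.

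**Figure D4:**
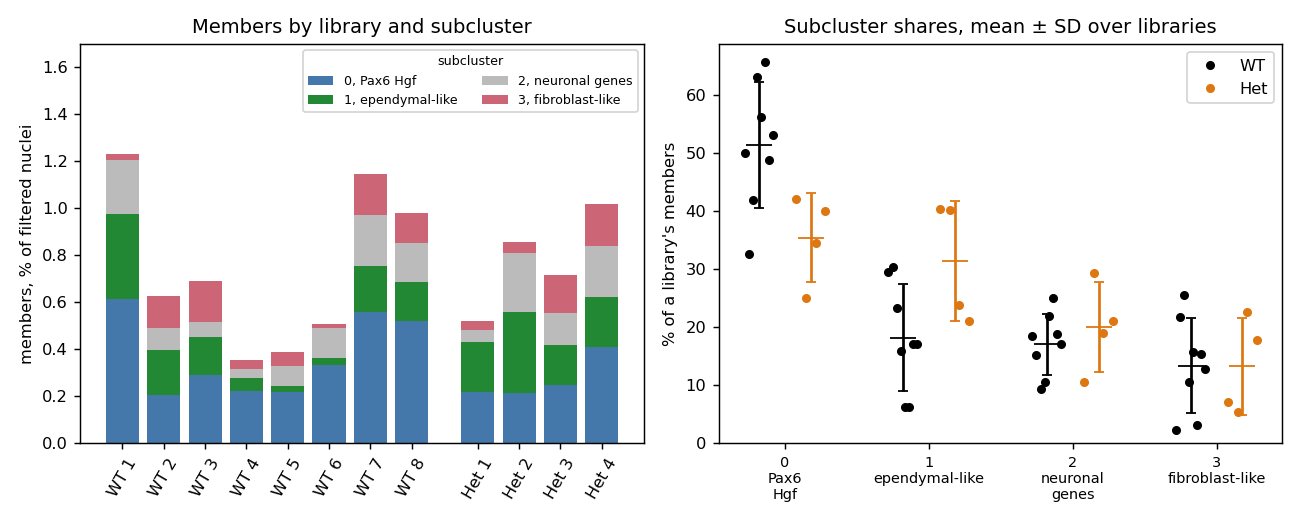
Left, members as a percent of filtered nuclei in each of the 12 libraries, stacked by subcluster, and right, each subcluster as a percent of a library's members, with 1 point per library and the mean ± SD of 8 WT and 4 Het libraries. Total height differs widely among WT libraries, from 0.352% in WT 4 to 1.23% in WT 1, and the Het points for subcluster 0 lie below the WT mean.

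Myt1l, the mutated gene, is a transcription factor of neurons and was low in subclusters 0 and 1. It stood at 91.2 CPM in subcluster 0 and 146 in subcluster 1, against 1172 in subcluster 2 and 1737 in neurons. Neurons were chosen with Myt1l among 4 genes whose summed UMIs had to reach 3, so their level is partly set by that choice. In the summed members it was 282, 561, 599.6 and 573 CPM in Het 1 to Het 4, and from 237 to 627 CPM across the 8 WT libraries, with a median of 417. The groups overlapped, and the difference of 0.26 ± 0.22 (SE) on the log2 scale did not pass the test (edgeR, adjusted p = 1.00). A frameshift can leave the RNA level as it is, so this value does not check the labels. Its paralogs Myt1 and St18 had 41 and 13.96 UMIs in all members and were too low for the test.

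The second question was which genes of the members differed between genotypes, and no gene passed. UMIs were summed per library over the members and tested with edgeR's quasi-likelihood test, which called a gene at an adjusted p under 0.05 and a log2 difference of at least 0.2. It called 0 of 2569 genes tested (0%), and 119 (4.63%) had an unadjusted p under 0.05, 58 of them higher and 61 lower in Het. DESeq2 also called 0 genes, with 226 of 21484 at an unadjusted p under 0.05. The same test was tried on simulated counts of the same depth and size. Among 2569 genes, 100 had been changed by 1 and another 100 by 2 on the log2 scale. The test recovered 78% and 99% of them and called 14 genes that had not been changed. Many changed genes ease the adjusted threshold, and recovery with fewer changed genes was not tested.

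The 3 genes with the smallest p in each direction are given as values that did not pass (edgeR, adjusted p = 0.625 for each). Tle1 (chr4:72117142-72200919), a corepressor that works with Notch targets, was 158, 197, 134 and 191 CPM in Het 1 to Het 4, and from 212 to 434 CPM across the 8 WT libraries, with a median of 321. All 4 Het values lay below the lowest WT value, a difference of -0.87 ± 0.20 (SE) on the log2 scale. Tox (chr4:6686353-6991557), a nuclear HMG-box protein, was 466.4, 421, 391 and 596 CPM in Het 1 to Het 4, and from 578 to 1036 CPM across the 8 WT libraries, with a median of 798. There 3 of 4 Het values lay below the WT range, a difference of -0.71 ± 0.18 (SE) on the log2 scale. Both genes were highest in subcluster 0, whose share was lower in Het, and the part of that share was not tested. Within subclusters 0, 1, 2 and 3 Tle1 stood at 238, 217, 86.9 and 184 CPM in Het and at 396, 327, 226 and 310.3 in WT. In the same order Tox stood at 614, 459.5, 487 and 213 CPM in Het and at 1045, 843, 624 and 199 in WT. In subcluster 3 the Tox value was not lower in Het, but it rests on 22 UMIs in Het and 27 in WT. Values by subcluster and genotype, here and below, pool all nuclei of a genotype and carry no spread between libraries. Per3 (chr4:151003652-151044665), a gene of the circadian clock, was 57.2, 63.9, 41.9 and 30.9 CPM in Het 1 to Het 4, and from 40.2 to 193 CPM across the 8 WT libraries, with a median of 110.0. The groups overlapped, at a difference of -1.32 ± 0.34 (SE) on the log2 scale. To be tested, a gene had to reach a set count level in at least 4 libraries. Per3 reached it in WT 1, WT 6, WT 7 and WT 8 and in no Het library, so its small p is partly set by that filter.

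In the other direction, Lrriq1 (chr10:103046031-103236322) was 396, 251, 240.2 and 167 CPM in Het 1 to Het 4, and from 59.2 to 223 CPM across the 8 WT libraries, with a median of 112. Its difference was 1.03 ± 0.26 (SE) on the log2 scale, with 3 of 4 Het values above the WT range. Lrriq1 was higher in the ependymal-like subcluster 1, whose share was higher in the Het libraries, and within that subcluster it stood at 663 CPM in Het and 390.1 in WT, and within subcluster 0 at 157 and 86.0. Ddo (chr10:40630011-40681847), which breaks down D-aspartate, was 194, 114, 128 and 104 CPM in Het 1 to Het 4, and from 12.1 to 87.8 CPM across the 8 WT libraries, with a median of 40.9. All 4 Het values lay above the WT range, at a difference of 1.19 ± 0.33 (SE) on the log2 scale. Ddo reached the count level needed for the test in the 4 Het libraries and in no WT library. Its separation and small p are therefore partly set by that filter. Ddo too was higher in subcluster 1, at 359 CPM in Het and 195 in WT, than in subcluster 0, at 68.9 and 56.3. The subcluster 0 values rest on 11 UMIs in Het and 19 in WT. The part of the share of subcluster 1 was not tested. Gm47283 was 1395, 931, 927 and 1086 CPM in Het 1 to Het 4, and from 126 to 885 CPM across the 8 WT libraries, with a median of 421, a difference of 1.28 ± 0.36 (SE) on the log2 scale. All 4 Het values lay above the WT range. In the Tnc astroglia Gm47283 differed by 1.31 ± 0.36 (SE) on the log2 scale, and the difference between the populations was 0.07 ± 0.18 (SE) on the log2 scale. On the other strand Trpm3 and Veph1 each overlap 3 genes, Myt1l and Shroom3 each 2, and Tle1, Tox, Lrriq1 and Gli3 each 1, and reads of such partners cannot be told apart if strand was not used.

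**Figure D5:**
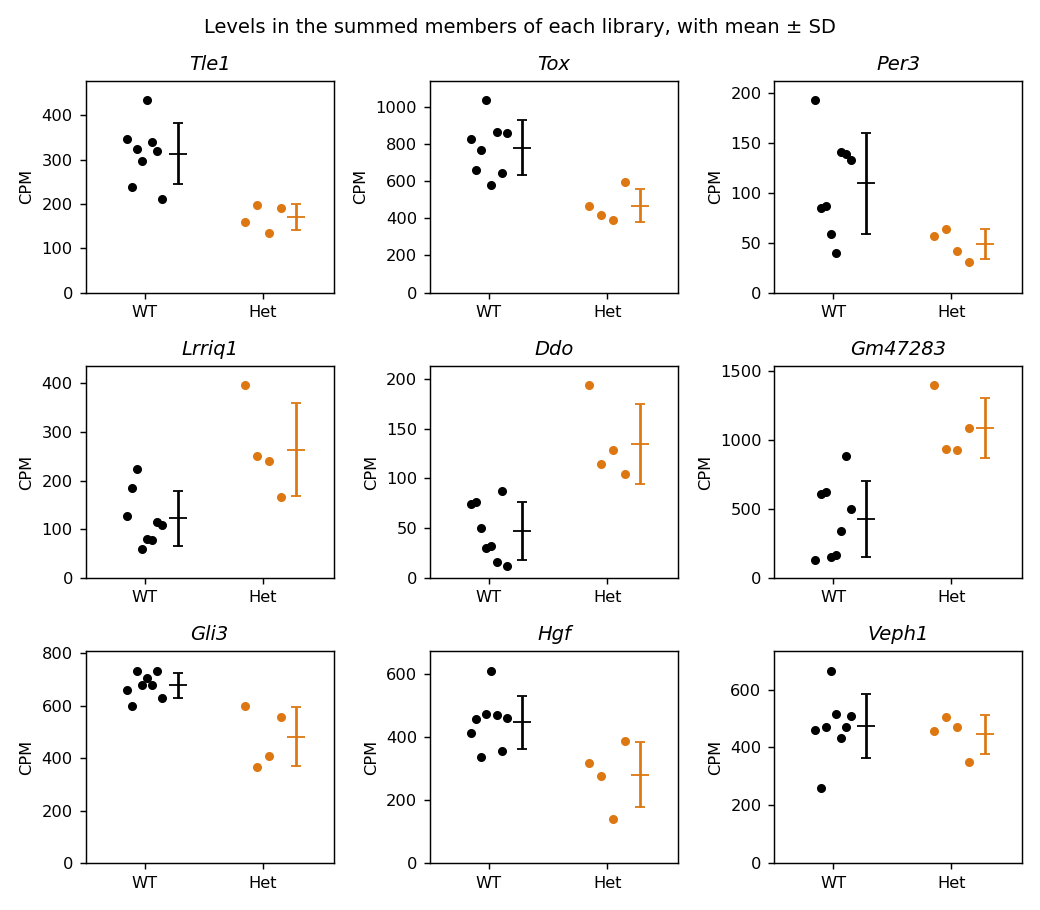
CPM in the summed members of each library (points) with the mean ± SD of 8 WT and 4 Het libraries, on axes that start at 0, for the 3 genes with the smallest p in each direction and for Gli3, Hgf and Veph1, the last 2 being genes of the rule. The Het points for Tle1 lie below all WT points and those for Ddo and Gm47283 above them, and none of the 6 genes with the smallest p passed the adjusted test. Ddo entered the test through Het libraries alone and Per3 through WT libraries alone.

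Gli3, the marker outside the rule, had an unadjusted p under 0.05 and did not pass. It was 598, 367, 408 and 556 CPM in Het 1 to Het 4, and from 597 to 734 CPM across the 8 WT libraries, with a median of 681. Its difference was -0.49 ± 0.16 (SE) on the log2 scale (edgeR, adjusted p = 0.625), with 3 of 4 Het values below the WT range. Gli3 was highest in subcluster 0, whose share was lower in the Het libraries, and the part of that share was not tested. Within subclusters 0, 1, 2 and 3 Gli3 stood at 965, 477, 217 and 252 CPM in Het and at 1133, 717, 253 and 451 in WT. The values of subcluster 3 rest on 26 UMIs in Het and 61 in WT. Hgf, Veph1, Lhcgr, Shroom3 and Slc1a3 chose the nuclei, so their levels are given without a test. They stayed in the fit across all genes and were left out of the lists below. Hgf was 317, 277, 139.6 and 388 CPM in Het 1 to Het 4, and from 335 to 611 CPM across the 8 WT libraries, with a median of 458. Veph1 was 458, 506, 469 and 348 CPM in Het 1 to Het 4, and from 261 to 666 CPM across the 8 WT libraries, with a median of 471. For Hgf 3 of 4 Het values lay below the WT range, and for Veph1 the groups overlapped.

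No gene of any list was called, against 0% of all genes tested. Of the 20 ependymal genes, 5 were abundant enough for the test, all 5 had higher values in Het and 3 had an unadjusted p under 0.05, against 4.63% of all genes, with a median log2 difference of 0.80 beside -0.00163 over all genes tested. Dnah9 was 588, 128, 265 and 78.7 CPM in Het 1 to Het 4, and from 29.6 to 186 CPM in the WT libraries, with a median of 93.6. Spef2 was 440.0, 101, 257 and 84.3 CPM in Het 1 to Het 4, and from 46.4 to 128 CPM in the WT libraries, with a median of 87.8. For both, Het 1 was the highest and Het 3 also lay above the WT range, while Het 2 and Het 4 lay within it. Without Het 1 none of the 3 genes had an unadjusted p under 0.05 (edgeR, adjusted p = 0.956 for each). Their log2 differences were then 0.61 for Dnah9, 0.62 for Spef2 and 0.32 for Cfap44. In that fit Rfx3 turned to -0.07 and Cfap43 was not abundant enough to have a value. Without Het 1 the 3 genes thus kept a higher value in Het, while Rfx3 did not. The summed level of the list ran from 1016 to 2211 CPM in WT and from 1325 to 5604 in Het. The share of subcluster 1 was also higher in the Het libraries, and its part in these values was not tested.

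For the other lists with at least 2 genes tested, the median log2 difference stayed within 0.393 of 0. Of 10 radial glia genes tested, Vim, an intermediate filament, had an unadjusted p under 0.05 and was higher in Het, at 61.4 ± 36.1 CPM in WT and 119 ± 48.7 in Het (edgeR, adjusted p = 0.980). Of 5 hedgehog genes tested, Gli3 alone had an unadjusted p under 0.05, and the median was -0.18. Of 10 receptors, Ntrk2, the receptor of the growth factor BDNF, had an unadjusted p under 0.05, at 1012 ± 136 CPM in WT and 783 ± 189 in Het (edgeR, adjusted p = 1.00). Of 2 division genes outside the rule, Smc4, a condensin subunit, had one too, at 181 ± 31.9 CPM and 113 ± 42.9 (edgeR, adjusted p = 0.860). In the remaining lists no gene had an unadjusted p under 0.05. Among these, medians were -0.17 for 6 Notch genes, -0.13 for 10 Wnt and BMP genes, -0.06 for 11 astrocyte genes and -0.04 for 12 polarity genes. The lists of Ntrk2 and Smc4 had medians of -0.26 for 10 receptors and -0.32 for 2 division genes.

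Genes of other cell types were also looked at in the members. All 10 neuron genes tested had higher values in Het, beside 1279 of all 2569 genes tested, with a median of 0.21, 0 of them at an unadjusted p under 0.05, and their summed level ran from 5059.6 to 10477 CPM in WT and from 5156 to 10158 in Het. All 14 neuron genes of the list were highest in subcluster 2, in which 40.4% of nuclei were marked as doublets and whose share was 20.01% of the members in Het and 17.0% in WT (exact permutation, adjusted p = 0.603), and its part in the neuron values was not tested. The mural and fibroblast list ran from 352 to 1279 CPM in WT and from 581 to 1155 in Het. The choroid plexus list ran from 29.6 to 339 CPM in WT and from 176 to 679 in Het, and 1 of its 10 genes was abundant enough for the test, with 0 called. In subclusters 0 and 1 it held 105 UMIs in Het 2, and 99 of these lay in 1 nucleus, which also held all 67 UMIs of Htr2c, a serotonin receptor of the choroid plexus, in that library. Microglia genes summed to at most 96.4 CPM in any library, with C1qa and C1qb at 0 UMIs, and none of that list was abundant enough for the test.

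Since the members were mixed, the test was repeated on subclusters 0 and 1 alone, a choice made after seeing the subclusters. It called 3 of 1507 genes (0.199%), each at an adjusted p of 0.0355 by edgeR. Tox was lower, with a difference of -0.90 ± 0.18 (SE) on the log2 scale, at 519.8, 571, 442 and 608 CPM in Het 1 to Het 4, and from 811 to 1221 CPM across the 8 WT libraries, with a median of 1046. All Het values lay below the WT range. Gm47283 was higher by 1.58 ± 0.33 (SE) on the log2 scale, with 1493, 919, 1237 and 1154 CPM in Het 1 to Het 4, and from 122 to 969.8 CPM across the 8 WT libraries, with a median of 296. Het 2 lay within the WT range. Trpm3 was higher by 1.81 ± 0.37 (SE) on the log2 scale, with 1901, 1093, 459 and 229 CPM in Het 1 to Het 4, and from 142 to 471 CPM across the 8 WT libraries, with a median of 255. Het 4 and Het 3 lay within the WT range for Trpm3, and Het 1 and Het 2 lay above it. A single nucleus held 114 of 157 Trpm3 UMIs in Het 1, and another 74 of 93.8 in Het 2, the nucleus with the Htr2c UMIs. The highest nucleus held 19.9 of 36.4 in Het 3 and 2 of 17.75 in Het 4. Without the highest nucleus of each library, Trpm3 had 95.25 UMIs in Het and 94.83 in WT, against 305 and 135 with them. In Het 1 and Het 3 too the nucleus highest for Trpm3 was the one with most choroid plexus list UMIs, 4 and 3.5. Of the nuclei of subclusters 0 and 1, 59 of 211 had a Trpm3 UMI in Het and 84 of 333 in WT. Trpm3 was highest in subcluster 3, at 23926 CPM in Het and 23624 in WT. The call was not tested without the single nuclei that held most of its UMIs. For Tox the highest nucleus held at most 14.3% of the UMIs of any Het library, and for Gm47283 at most 9.72%. Each of the 3 calls was lost in 8 of 12 fits that left out a library, in which the count of calls ranged from 0 to 14. Over these fits the log2 difference ran from -0.96 to -0.81 for Tox, from 1.39 to 2.14 for Gm47283 and from 1.19 to 2.13 for Trpm3. With subcluster 0 alone, Gm47283 was the 1 gene called of 650.

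The last question was whether the genotype difference of the members departed from that of the Tnc astroglia, which come from the same libraries. By edgeR, 0 of 10017 genes (0%) passed in the Tnc astroglia, where 657 had an unadjusted p under 0.05. For the difference between the populations, 0 of 7531 genes (0%) passed, and 267 had an unadjusted p under 0.05. DESeq2 was not run on these comparisons. Gli3 differed by -0.49 ± 0.16 (SE) on the log2 scale in the members and by -0.03 ± 0.13 (SE) on the log2 scale in the Tnc astroglia, and the difference of these values was -0.43 ± 0.18 (SE) on the log2 scale (edgeR, adjusted p = 1.00). For Tle1 the values were -0.87 and -0.24, and for Lrriq1 1.03 and 0.86. They were 1.19 and 0.71 for Ddo, -1.32 and -0.67 for Per3 and -0.71 and -0.33 for Tox. The sign was the same in both populations for all of these, but for Gli3 the value in the Tnc astroglia was smaller than its SE and gives no direction.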

How the data were processed

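Nuclei of P1 forebrain from 8 WT and 4 Het mice had been fixed and barcoded by combinatorial indexing. The authors counted UMIs with ScaleRna on mm10, and called nuclei with CellFinder. They deposited expected counts, unnormalized and with UMIs that fitted several genes divided between them. The submitters' processing notes also name Seurat 4.3.0. Neither the way UMIs were divided nor the use of strand is stated. The study removed multiplets downstream with DoubletFinder, and the deposited barcodes are used here without that step. The files list 55335 genes, of which 54587 identifiers match GENCODE M21 with their version, and libraries held between 6014 and 16782 barcodes.

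The rule for the members was applied to the deposited values. The members, the gene lists and the markers were chosen with earlier results of these data known. Doublets were scored by comparing each barcode with simulated pairs, and the top-scoring 5% of a library's barcodes were marked but kept, except in the alternative that removes them. No step subtracted free RNA. Members were clustered with scanpy 1.11.5 (2000 variable genes, 20 components, 15 neighbours, Leiden resolution 0.5). UMIs summed per library were rounded to whole numbers, since the design had assumed counts, and tested with edgeR 4.0.16 (TMM, filterByExpr, quasi-likelihood test with Benjamini-Hochberg adjustment), and with DESeq2 1.42.0 as an alternative. Both were run in R 4.3.3. Shares were compared over libraries by exact permutation (scipy 1.17.1), so p-values measure the spread between animals. The study drew its P1 animals from several litters, which the labels do not give, so litter was not modelled. Tests were tried on simulated data with known changes.

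The genes named were the rule genes and markers, the 3 with the smallest p in each direction, the 15 with the largest and 10 with the smallest ratio to the Tnc astroglia, up to 4 of each list by level, Myt1l and its paralogs, and the 5 leading genes of each subcluster. Of these, 3 genes are not reported here. The neuron comparison set is nuclei with no UMI of Slc1a3 and at least 3 UMIs in the sum of Myt1l, Syt1, Snap25 and Rbfox3, outside the dividing nuclei. Other genes named in the text were chosen after their values were seen. Alternatives were the other tool and size factors, no filter, other limits, thinning, sex, pairing, doublets, resolution and each library left out.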

Additional observations from a re-analysis of the deposited data

Results flagged for a closer look

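A pair of values stood apart from the rest of their group, among 48 groups looked at, where chance flags about 1 in 20. Slc1a3 in the members was highest in WT 8, at 3011 CPM, with the next WT library at 2253, and WT 8 also had the lowest median depth of its members, at 1332 UMIs. Slc1a3 belongs to the rule, and its level is a description. Myt1l in the members was lowest in Het 1, at 282 CPM, with the next Het library at 561, and Het 1 had 6 nuclei of subcluster 2, in which Myt1l was highest, among its 57 members, or 10.5%, the lowest share of the 4 Het libraries. The part of subcluster 2 in this value was not tested.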

How the results depend on the processing

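The difference in the share of filtered nuclei (Het minus WT, 0.0376 points) kept its sign and its side of the threshold with male libraries only, doublet-marked nuclei removed, the ratio filter, limits of 3 or 1 UMIs and thinning to 800 UMIs, at 0.0111 to 0.301 points. With subclusters 0 and 1 only, chosen after seeing the data, the sign turned for this share (-0.0118 points), for the share among both astroglial populations (-0.133 points) and for the median UMIs (-29.4), none past the threshold. Leaving out 1 library gave ranges of -0.0432 to 0.124 points for the share, -0.167 to 1.63 points among both astroglial populations, -0.210 to 9.06 members per 100 dividing nuclei and 33.4 to 88.0 median UMIs. For the shares of subclusters 0 to 3 these ranges, added after seeing the data, were -18.7 to -12.6, 10.2 to 16.6, -0.121 to 6.15 and -3.29 to 2.44 points, and subcluster 0 passed the threshold without WT 2 (adjusted p = 0.0485 by the exact permutation test). At resolution 1 the difference of subcluster 3 was 0.115 points.

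Without the filter on low counts edgeR called 28 genes in the members, 27 of them higher in Het, against 0 with it, and the cause was not tested. With subclusters 0 and 1 only it called 3 genes, and with subcluster 0 only 1. Leaving out 1 library gave 0 to 1 calls in the members, with Reln called without Het 4 (log2 difference 2.28), 0 to 1 in the Tnc astroglia, with Cfap43 called without WT 8 and Efhb without Het 1, and 0 for the difference between the populations. That difference was called for 6 genes (Htr2c, Trpm3, Il1rapl2, Slc4a10, Grm5 and Erbb4) with subclusters 0 and 1 only. For several of them 1 library held most of the UMIs in Het. Htr2c had 67 UMIs in Het 2 and at most 2 in any other library, Il1rapl2 22 in Het 3 and at most 4.83, Slc4a10 21.2 in Het 3 and at most 12.5, Grm5 75 in Het 3 and at most 33, and Trpm3 157 in Het 1 and at most 93.8. DESeq2, DESeq2 size factors, sex as a covariate, male libraries only, removal of doublet-marked nuclei, the ratio filter and limits of 3 UMIs gave 0 calls each.

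The fit with sex and replicate number as a replicate block called 0 genes, and the paired difference in the share was 0.0139 points (exact sign permutation p = 0.875, where the smallest p that 4 pairs allow is 0.125). Whether the numbers pair the libraries could not be decided. Of 4 same-numbered pairs, 1 deviated together with a correlation over 0.1, and 1 of 4 Het libraries matched its own number best. Pairs of unlike number also passed 0.1, and the highest correlation, 0.299, was between Het 2 and WT 1. Members numbered 19 to 136 per library, and recovery of changes under 1 on the log2 scale was not tested.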
